A study of Mus musculus with 32 samples.

Results

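The 10 histone genes described here, across all libraries of the series, are the linker histone genes Hist1h1c, H1f0 and H1fx, the core histone genes Hist1h2bc and Hist3h2a, and the variant genes H2afz, H2afy, H2afj, H3f3a and H3f3b. They are 10 of the 55415 features in the deposited count files, and all 10 passed the filter on low counts that left 10679 genes for testing. Members were listed by name, with earlier results from these same data known. Hist1h1c was chosen by its measured level, which was higher with AON12.1 in those results. Its 3 comparisons with AON12.1 are therefore given as values without a test, and the tests concern the other 9 genes and the comparisons of Hist1h1c that do not involve AON12.1.

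The animals were YAC128 mice, a Huntington disease model in which a yeast artificial chromosome carries human huntingtin with a lengthened polyglutamine stretch, and wild-type (WT) littermates, on a B6 background per the labels. AON12.1 is an antisense oligonucleotide that, by the series title, acts at the caspase-6 site of HTT. YAC128 mice received 500 µg of AON12.1, 500 µg of a scrambled oligonucleotide in the same volume of artificial cerebrospinal fluid (aCSF), or 10 µL of aCSF alone, and WT mice received aCSF alone. All 4 groups thus share the cannula in the lateral ventricle and 3 injections, given from about 6 months of age and again 2 and 4 weeks later, and all striata were taken at 12 months of age after magnetic resonance imaging. Each group holds 8 libraries from separately numbered mice, and no WT mouse received an oligonucleotide, so genotype and oligonucleotide cannot be separated in a comparison of a treated group with WT.

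Histones package DNA into nucleosomes, and linker histones of the H1 family bind where DNA enters and leaves the nucleosome. Most core and linker histone genes are expressed mainly while DNA is copied, and their messenger RNAs end in a conserved stem-loop in place of a poly(A) tail. Replacement variants such as H1f0, H2afz or H3f3a and H3f3b are made throughout the life of a cell and carry poly(A) tails, and they are the main source of new histone in cells that no longer divide. Some replication-linked histone genes, Hist1h1c among them, can also be read through to a downstream poly(A) signal, so that an oligo-dT primer can capture them.

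The ends of the annotated transcripts bear on what an oligo-dT primer can capture. The stem-loop was searched as the 16 letters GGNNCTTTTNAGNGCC, where N is any base, and the poly(A) signal as AATAAA within the last 50 bases of a protein-coding transcript, both on the transcribed strand of GENCODE M21 transcripts (GRCm38). Capitals mark these motifs in the lines that follow, which are shown for the 2 listed genes with both motifs, for H1f0 and H1fx with the signal only, and for Hist1h1e, another linker histone gene with the stem-loop only.
Hist1h1c stem-loop: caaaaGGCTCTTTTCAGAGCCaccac
Hist1h1c signal: cttctAATAAAaagcgtttagttttcattc
Hist3h2a stem-loop: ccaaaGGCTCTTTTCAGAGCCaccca
Hist3h2a signal: tgcccAATAAAataagagtacgtgtataac
H1f0 signal: tttaaAATAAAactggaaaggaaaaaa
H1fx signal: ggcgcAATAAAcggttccaaccttga
Hist1h1e stem-loop: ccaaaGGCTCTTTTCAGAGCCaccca

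In Hist1h1c the stem-loop began at base 705 of a transcript of 1560 bases and lay 840 bases before its end, while AATAAA began 26 bases before the end. Hist3h2a had the same order, with the stem-loop at base 488 of 2146 and 1643 bases before the end. The stem-loop letters occurred in 47 of 21877 protein-coding genes (0.215%) and in 44 of 84 histone genes, but in only these 2 of the 10 listed genes. AATAAA near an end was found in 8 of the 10, all but H2afy and Hist1h2bc, against 65.8% of all protein-coding genes. A match is a description of the letters and not evidence that a transcript ends there.

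Upstream sequence is shown for Hist1h1c and H1fx, the linker genes with the widest differences between groups. Each line holds the 250 bases before the RefSeq start in GRCm38.p6, written along the gene's strand. Capitals mark AAACACA, an element known from H1 promoters, and CCAAT in Hist1h1c, and in H1fx the GC box GGGCGG as it reads on the other strand.
Hist1h1c chr13:23738557-23738806 plus strand: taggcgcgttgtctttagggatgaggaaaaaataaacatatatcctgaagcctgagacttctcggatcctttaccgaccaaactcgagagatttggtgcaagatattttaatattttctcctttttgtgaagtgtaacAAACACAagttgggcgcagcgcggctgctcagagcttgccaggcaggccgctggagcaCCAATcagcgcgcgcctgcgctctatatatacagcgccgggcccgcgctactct
H1fx chr6:87981483-87981732 minus strand: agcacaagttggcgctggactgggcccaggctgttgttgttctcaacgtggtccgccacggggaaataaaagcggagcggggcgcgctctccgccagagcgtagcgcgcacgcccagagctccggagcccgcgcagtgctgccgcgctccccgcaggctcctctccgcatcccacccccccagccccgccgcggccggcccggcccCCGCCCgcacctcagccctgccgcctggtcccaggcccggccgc

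Promoter entries matched 9 of the 10 genes, all but Hist1h2bc. AAACACA, searched on both strands, began 112 bases before the start of Hist1h1c and CCAAT 54 bases before it, while GGGCGG lay 44 bases before the start of H1fx. AAACACA was found in 2 of the 9 promoters (Hist1h1c and H3f3a) and in 6.25% of 32851 promoters of that length. CCAAT occurred in 6 of the 9 and in 33.8% of all, and GGGCGG in 5 of the 9 and in 32.7% of all.

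Gene counts per library ran from 658934 to 1419313, and 16.3% to 33.7% of the counts in a file fell outside any feature. The mean of that share was 19.5% ± 4.40 in WT aCSF libraries and 25.7% ± 4.92 in YAC128 aCSF libraries, and with the oligonucleotides 22.1% ± 2.41 (scrambled) and 23.8% ± 6.70 (AON12.1; SD, n = 8 each). All 15 striatal projection neuron markers were detected in each group, with summed levels of 3722 to 12170 CPM (counts scaled to library size) per library. One YAC128 aCSF library, replicate 4, held 3382 CPM of choroid plexus and ependymal markers, against at most 243 CPM in any other library. Without that library, the log2 fold change of Hist1h1c in AON12.1 against YAC128 aCSF was 0.87, beside 0.92 with it. One scrambled library, replicate 5, held 1193 CPM of cortical excitatory neuron markers, against at most 578 CPM in any other library. It also had the lowest summed projection neuron level, 3722 CPM. With any 1 library of their groups left out, Hist1h1c in AON12.1 against scrambled stood between 1.08 and 1.23, beside 1.16 with all. In bulk tissue, fewer cells of a type and less RNA per cell cannot be told apart.

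Hist1h1c (ENSMUSG00000036181, chromosome 13), a linker histone gene, stood highest in the AON12.1 group. Its level, as CPM normalized by trimmed mean of M-values (TMM), had a lowest value of 32.3, a median of 46.3 and a highest value of 54.9 in the AON12.1 libraries. In the scrambled libraries the lowest, median and highest levels were 13.8, 20.9 and 25.2 CPM, and in YAC128 aCSF libraries 17.6, 24.4 and 27.8 CPM. All 8 AON12.1 libraries lay above all 8 scrambled and all 8 YAC128 aCSF libraries. In WT aCSF libraries the levels were 19.7, 24.7 and 44.9 CPM, and the WT replicates 2, 4 and 6, at 32.4, 35.1 and 44.9 CPM, lay within the AON12.1 range.

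The mean level of Hist1h1c was 45.1 ± 7.66 CPM with AON12.1, 20.2 ± 4.00 with the scrambled oligonucleotide, 23.8 ± 3.19 in YAC128 aCSF and 27.8 ± 9.03 in WT aCSF (SD, n = 8 each). AON12.1 libraries were thus 2.24-fold above scrambled (95% interval 1.79 to 2.80), with a log2 fold change of 1.16 ± 0.16 (SE). Against YAC128 aCSF the fold was 1.89 (1.52 to 2.34) and against WT aCSF 1.59 (1.28 to 1.97), with log2 fold changes of 0.92 ± 0.15 and 0.67 ± 0.15. These 3 comparisons share the AON12.1 libraries, and the gene was chosen for them, so they carry no p-value. Their intervals do not allow for that choice and are not to be read as a test.

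Between the groups that did not receive AON12.1, Hist1h1c did not pass the test, which was the quasi-likelihood test of edgeR, adjusted by Benjamini-Hochberg over all 10679 genes. The genotype comparison, YAC128 aCSF against WT aCSF, gave a log2 difference of -0.25 ± 0.16 (adjusted p = 0.544, fold 0.841 with a 95% interval of 0.668 to 1.06), and -0.09 without WT aCSF replicate 6, the highest WT library. Scrambled against YAC128 aCSF gave -0.25 ± 0.17 (adjusted p = 0.655), with opposite signs in the 2 series of animal numbers: 0.13 in series 18 (adjusted p = 0.888) and -0.46 in series 19 (adjusted p = 0.873). Scrambled against WT aCSF gave -0.50 ± 0.17, with an unadjusted p of 0.0059 and an adjusted p of 0.288, and -0.17 in series 18. In falling order of the mean the groups were AON12.1, WT, YAC128 aCSF and scrambled, and neither pair of neighbours among the last 3 differed past the threshold.

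Animal numbers begin with 18 or 19 (the series named here), which the labels do not explain, and with AON12.1 too Hist1h1c was compared within each number series. Among animals of series 18 its mean was 46.3 CPM in 2 AON12.1 libraries and 23.8 CPM in 2 scrambled libraries. Among animals of series 19 the means were 44.7 CPM in 6 AON12.1 and 19.04 CPM in 6 scrambled libraries. The log2 difference from scrambled was 0.97 in series 18 and 1.24 in series 19. Both series are parts of the libraries that chose the gene, so these values are descriptive and no independent support. Counts of Hist1h1c were modest, from 12 to 51 per library, with 27 to 51 in the AON12.1 group, 12 to 23 in scrambled, 15 to 35 in YAC128 aCSF and 14 to 51 in WT libraries.

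**Figure D1:**
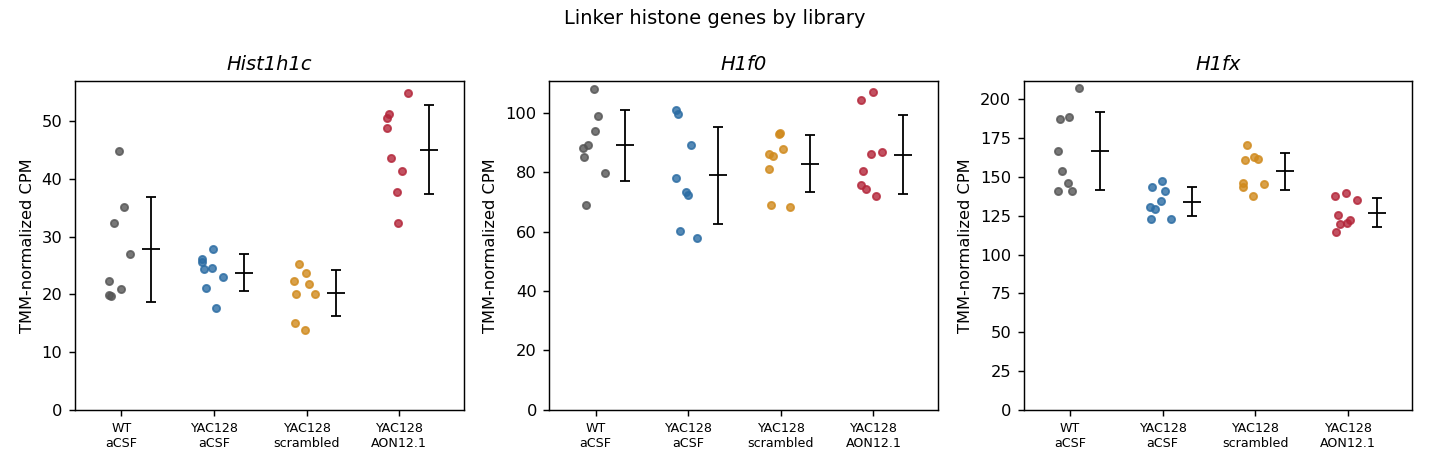
Levels of the linker histone genes Hist1h1c, H1f0 and H1fx in each library, in TMM-normalized CPM from 0 on the vertical axis, by group, with 8 libraries each; points are libraries and bars the mean ± SD. Hist1h1c lay between 32.3 and 54.9 CPM with AON12.1, above all scrambled and YAC128 aCSF libraries, while H1fx with AON12.1 lay between 115 and 140.0 CPM, below all WT libraries.

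H1f0 (ENSMUSG00000096210, chromosome 15) encodes the replacement linker histone of differentiated cells. Its levels were 89.0 ± 11.9 CPM in WT aCSF, 78.9 ± 16.4 in YAC128 aCSF, 82.9 ± 9.67 in scrambled and 85.8 ± 13.3 in AON12.1 libraries (SD, n = 8 each). The lowest, median and highest values were 72.0, 83.2 and 107 CPM with AON12.1 and 68.4, 85.8 and 93.1 CPM with scrambled, so these groups overlapped over most of their range. AON12.1 against scrambled differed by 0.05 ± 0.11 on the log2 scale (adjusted p = 0.959), with a 95% interval of the fold from 0.884 to 1.22.

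H1fx (ENSMUSG00000044927, chromosome 6) encodes a linker histone that is distant in sequence from the other H1 proteins. It was highest in WT and lowest with AON12.1. The lowest, median and highest levels were 141, 160.3 and 207 CPM in WT aCSF, and 123, 133 and 148 CPM in YAC128 aCSF libraries. In scrambled libraries they were 138, 153 and 171 CPM, and with AON12.1 115, 124 and 140.0 CPM. No AON12.1 library reached the lowest WT library, as for 0.243% of all genes in either direction, though the gap between them was small, and all other pairs of groups overlapped.

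Of the tests made on the listed genes 1 passed, that of H1fx in AON12.1 against WT aCSF. There its mean was 127 ± 9.42 CPM against 167 ± 25.2 CPM (SD, n = 8 each), and the log2 difference was -0.39 ± 0.08 (adjusted p = 0.0134, fold 0.764 with a 95% interval of 0.679 to 0.859). The call was lost when only these 2 groups were fitted (-0.38, adjusted p = 0.0657), when libraries with over 25% of counts outside features were left out (-0.46, adjusted p = 0.0607), and within series 18 (-0.36, adjusted p = 0.530) or series 19 (-0.39, adjusted p = 0.0918). With the share of counts outside features as a covariate, H1fx gave -0.35 (adjusted p = 0.0480).

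H1fx in YAC128 aCSF against WT aCSF gave -0.31 ± 0.08 with an unadjusted p of 0.000664 and an adjusted p of 0.15. Leaving out WT aCSF replicate 1, the WT library with the most counts outside features at 30.2%, turned H1fx into a call in that comparison (-0.33, adjusted p = 0.0401). AON12.1 against scrambled gave -0.27 ± 0.08 (adjusted p = 0.354), AON12.1 against YAC128 aCSF -0.08 ± 0.08 (adjusted p = 0.770) and scrambled against YAC128 aCSF 0.19 ± 0.08 (adjusted p = 0.444). In the order WT, scrambled, YAC128 aCSF and AON12.1, no neighbours differed past the threshold.

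Summed over the 3 linker genes the level was 283 ± 20.4 CPM in WT aCSF, 237 ± 21.2 in YAC128 aCSF, 257 ± 18.0 in scrambled and 258 ± 19.5 in AON12.1 libraries (SD, n = 8 each). Within that sum, Hist1h1c made up 17.5% ± 2.94 of the counts with AON12.1, between 12.5% and 21.0% per library. In scrambled libraries it made up 7.84% ± 1.27, between 5.64% and 8.97%, and the means were 10.1% ± 1.38 in YAC128 aCSF and 9.79% ± 3.01 in WT aCSF. The scrambled and AON12.1 ranges of this share did not overlap, while the summed levels differed by less than their spread. The share contains the Hist1h1c counts by which the gene was chosen, so it restates that difference and is no separate support. These shares are of counts at transcript ends and are not per length, so they are no measure of how much of each protein the cells hold.

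Hist1h2bc (ENSMUSG00000018102, chromosome 13) encodes a core histone of the H2B family. Its mean was 110.3 ± 15.0 CPM with AON12.1, 105 ± 32.2 with scrambled, 88.0 ± 14.7 in YAC128 aCSF and 92.3 ± 20.3 in WT aCSF (SD, n = 8 each). The lowest, median and highest levels were 87.4, 112 and 133 CPM with AON12.1 and 61.8, 86.9 and 109.8 CPM in YAC128 aCSF, with overlap between them. AON12.1 against YAC128 aCSF gave 0.32 ± 0.15 (unadjusted p = 0.0343, adjusted p = 0.385), or 0.58 in series 18 (adjusted p = 0.116) and 0.16 in series 19 (adjusted p = 0.883). AON12.1 against scrambled gave 0.06 ± 0.14 (adjusted p = 0.964). The scrambled group had the widest range of Hist1h2bc, from 53.7 to 169 CPM.

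Hist3h2a (ENSMUSG00000078851, chromosome 11) encodes a core histone of the H2A family and, like Hist1h1c, carries both transcript-end motifs. Its lowest, median and highest levels were 19.7, 28.7 and 47.8 CPM with AON12.1, 19.5, 23.8 and 31.9 CPM with scrambled, 19.5, 25.5 and 26.2 CPM in YAC128 aCSF, and 14.0, 19.1 and 35.2 CPM in WT aCSF. All 4 groups overlapped, and replicate spread was widest with AON12.1, at a mean of 30.9 ± 10.6 CPM (SD, n = 8). Against WT aCSF the log2 fold change of Hist3h2a with AON12.1 was 0.46 ± 0.18 (adjusted p = 0.240), or 0.92 in series 18 (adjusted p = 0.350) and 0.30 in series 19 (adjusted p = 0.5675). It was 0.35 ± 0.18 against YAC128 aCSF (adjusted p = 0.442) and 0.31 ± 0.18 against scrambled (adjusted p = 0.754). Against scrambled the 95% interval of the fold ran from 0.967 to 1.58.

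H2afz (ENSMUSG00000037894, chromosome 3), the gene of a variant H2A found near active start sites, had means of 52.9 ± 7.16 CPM in WT aCSF, 46.7 ± 11.4 in YAC128 aCSF, 45.7 ± 9.32 in scrambled and 51.7 ± 6.94 in AON12.1 libraries (SD, n = 8 each). Its adjusted p-values were 0.669 or higher in every comparison. H2afy (ENSMUSG00000015937, chromosome 13) encodes macroH2A, a variant with a large extra domain linked to silent chromatin. It was measured at 148 ± 18.5, 149.5 ± 23.1, 147 ± 12.05 and 141 ± 33.1 CPM in the same order of groups, and AON12.1 against scrambled gave a fold of 0.965 (95% interval 0.820 to 1.13). For both genes the ranges of all 4 groups overlapped.

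H2afj (ENSMUSG00000060032, chromosome 6), the gene of another replacement H2A, was highest in the scrambled group. The lowest, median and highest levels were 126, 139 and 183 CPM with scrambled, 104, 109 and 139 CPM in YAC128 aCSF, 87.1, 124 and 143 CPM with AON12.1 and 98.5, 123 and 165 CPM in WT aCSF. The scrambled range overlapped each of the others. Scrambled against YAC128 aCSF gave 0.31 ± 0.11 (unadjusted p = 0.00618, adjusted p = 0.314) and AON12.1 against scrambled -0.26 ± 0.11 (adjusted p = 0.577), so neither passed the threshold. Both moved with the series: the first was 0.54 in series 18 and 0.16 in series 19, and the second -0.13 and -0.31. Over the 32 libraries, log2 CPM of H2afj had r = -0.47 with the share of counts outside features. That was the strongest such correlation of the listed genes, followed by H1fx at -0.45. The mean of that share differed between groups, so these correlations are descriptive.

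H3f3a (ENSMUSG00000060743, chromosome 1) and H3f3b (ENSMUSG00000016559, chromosome 11) encode the same replacement H3 protein, which is put into chromatin outside DNA replication. H3f3a had a mean of 194 ± 85.6 CPM in WT aCSF, 203 ± 46.9 in YAC128 aCSF, 196 ± 39.3 in scrambled and 232 ± 38.2 in AON12.1 libraries (SD, n = 8 each). One WT library, replicate 3, stood at 386 CPM, and the other 7 lay between 91.3 and 208 CPM. AON12.1 against scrambled gave 0.24 ± 0.17 for H3f3a (adjusted p = 0.83) and AON12.1 against WT aCSF 0.25 ± 0.17 (adjusted p = 0.520), or 0.46 (adjusted p = 0.146) without that WT library.

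For H3f3b the means were 181 ± 32.2 CPM in WT aCSF, 159.6 ± 32.5 in YAC128 aCSF, 156 ± 19.3 in scrambled and 154 ± 17.6 in AON12.1 libraries (SD, n = 8 each). AON12.1 against scrambled gave -0.02 ± 0.11 (adjusted p = 0.989), with a 95% interval of the fold from 0.842 to 1.16. Against WT aCSF, H3f3b with AON12.1 gave -0.23 ± 0.11 (unadjusted p = 0.0472, adjusted p = 0.335). Values of H3f3b overlapped between all groups.

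**Figure D2:**
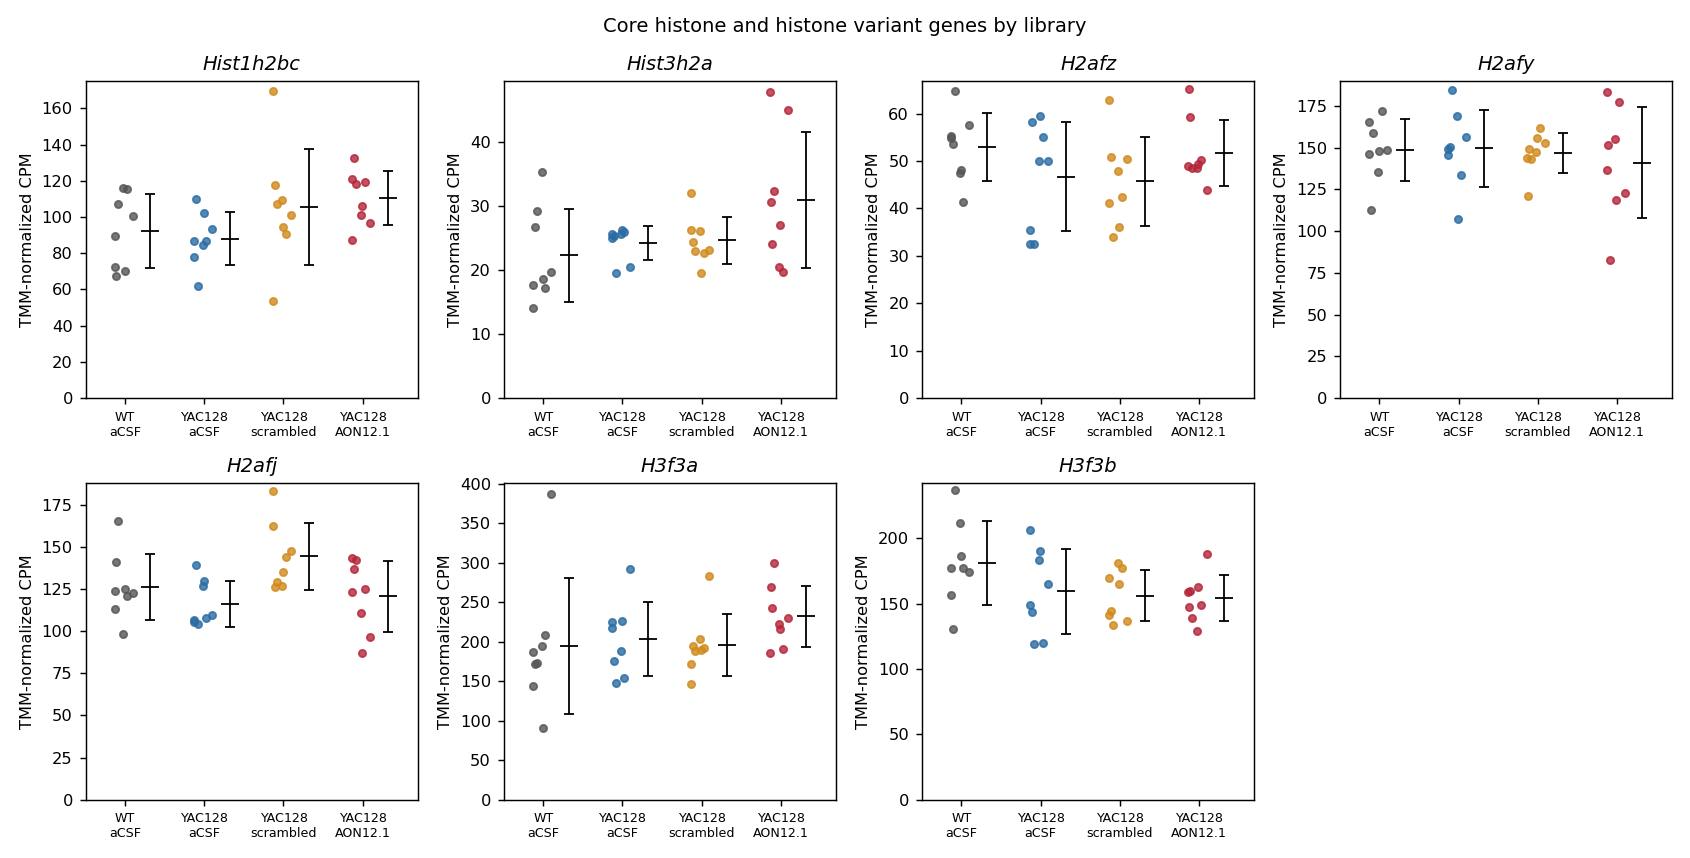
Levels of 2 core histone genes and 5 variant histone genes in each library, in TMM-normalized CPM from 0 on the vertical axis, by group, with 8 libraries each; points are libraries and bars the mean ± SD. The groups overlapped for each gene, and 1 WT library of H3f3a stood at 386 CPM.

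Counted by comparison, the listed genes moved little. In AON12.1 against scrambled 0 of the 9 tested genes were called by edgeR, where 0.14% of all genes were, and 2 of 9 (H1fx and H2afj) had an unadjusted p under 0.05, where 7.25% of all genes had. In AON12.1 against YAC128 aCSF 0 of 9 were called, against 0.309% of all genes, and 1 of 9 (Hist1h2bc) had an unadjusted p under 0.05, against 11.6%. In AON12.1 against WT aCSF 1 of 9 was called, H1fx, which was lower, where 0.328% of all genes were called lower and 0.562% in either direction, and 3 of 9 had an unadjusted p under 0.05, against 14.5%. Hist1h1c is left out of these counts because the comparisons chose it.

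The comparisons without AON12.1 held no called member. In the genotype comparison 0 of 10 were called, against 0.0749% of all genes, and H1fx alone had an unadjusted p under 0.05, against 12.5% of all genes. In scrambled against YAC128 aCSF 0 of 10 were called, against 0.0843%, with 2 of 10 (H2afj and H1fx) under 0.05, against 9.83%. In scrambled against WT aCSF 0 of 10 were called, against 0.169%, with 1 of 10 (Hist1h1c) under 0.05, against 9.8%. Limma voom and DESeq2 each called 0 members wherever edgeR called 0, and each called 1 in AON12.1 against WT aCSF, but DESeq2 left most members without an adjusted p in the genotype comparison and some in scrambled against YAC128 aCSF.

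Counted as non-overlap between groups, Hist1h1c was higher in AON12.1 than in scrambled libraries along with 0.0749% of all genes, and higher than in YAC128 aCSF libraries along with 0.122% of all genes. Hist1h1c was chosen by these levels, so its place among all genes is descriptive and no test. The median log2 fold change of the 9 genes other than Hist1h1c was 0.05 in AON12.1 against scrambled, beside 0.01 over all genes tested. It was 0.13 against YAC128 aCSF, beside 0.00, and -0.06 against WT aCSF, beside 0.01. The extremes among these 9 in AON12.1 against scrambled were H1fx at -0.27 and Hist3h2a at 0.31. Hist1h1c at 1.16, in a comparison that chose it, lay outside them. The sum of the 7 core and variant genes was 819 ± 75.1 CPM with scrambled and 841 ± 50.4 CPM with AON12.1 (SD, n = 8 each).

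**Figure D3:**
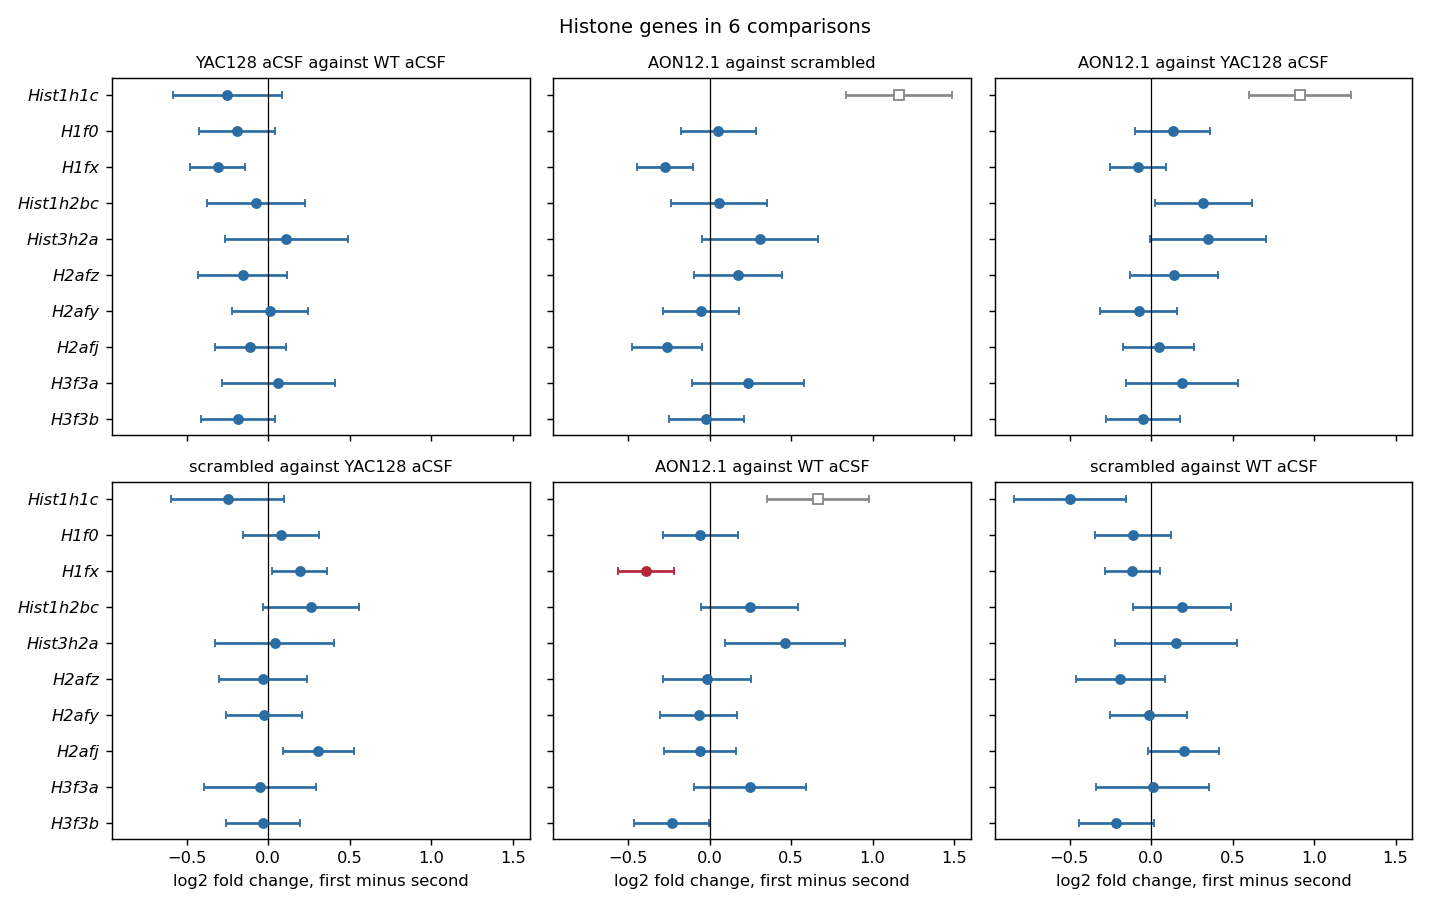
Log2 fold change of each listed gene in the 6 comparisons, first group minus second, with 95% intervals; filled circles are tested genes, the red circle is the called one, and open grey squares are values of Hist1h1c in the comparisons that chose it, without a test. Hist1h1c stood at 1.16, 0.92 and 0.67 against scrambled, YAC128 aCSF and WT aCSF, and H1fx was called at -0.39 in AON12.1 against WT aCSF. The intervals of the open squares do not allow for the choice of the gene.

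Outside the list, 74 further protein-coding histone symbols were in the files, and 6 of them passed the filter: H2afv, H2afx, Hist3h2ba, H2afy2, Hist2h3c2 and Hist2h2be. None of the 6 was called in any of the 6 comparisons by edgeR. Of the other 68, 31 had 0 counts in all libraries, and no library held more than 10 counts of any of them. The stem-loop letters occurred in 39 of these 68 genes and in 5 of the 16 histone genes tested, and AATAAA near an end in 13 of the 68 and in 12 of the 16. Hist1h1e and Hist1h1d, linker histone genes with the stem-loop and no AATAAA near the end, had 18 and 7 counts over all 32 libraries, against 877 for Hist1h1c. The motifs did not sort the genes by count, since H2afx and Hist2h3c2, which also hold the stem-loop and no AATAAA near the end, had 1678 and 549 counts, and 7 of the 68 untested genes hold both motifs. The 10 listed genes held 78.4% of all histone counts.

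H2afv, the gene of a near relative of the H2afz protein, was measured at 148 ± 10.9 CPM with AON12.1 and 131 ± 23.0 CPM with scrambled (log2 fold change 0.17 ± 0.10, adjusted p = 0.755). H2afx, whose protein is marked at DNA breaks, stood at 57.2 ± 15.5 CPM with AON12.1 and 53.7 ± 8.13 CPM with scrambled (0.06 ± 0.13, adjusted p = 0.959). Hist3h2ba, which like Hist1h1c holds both transcript-end motifs, gave 0.08 ± 0.19 in AON12.1 against scrambled (adjusted p = 0.962). In that comparison H2afy2 gave 0.25 ± 0.15 (adjusted p = 0.789) and Hist2h2be -0.19 ± 0.23 (adjusted p = 0.923). Hist2h3c2, an H3 gene with the stem-loop, was chosen for mention after its values were seen. It stood at 27.6 ± 6.96 CPM with AON12.1, 15.7 ± 8.46 with scrambled, 14.1 ± 5.65 in YAC128 aCSF and 16.04 ± 5.08 in WT aCSF (SD, n = 8 each), and its ranges overlapped. Its log2 fold change was 0.75 ± 0.24 against scrambled (adjusted p = 0.447), 0.94 ± 0.25 against YAC128 aCSF (adjusted p = 0.0842) and 0.77 ± 0.25 against WT aCSF (adjusted p = 0.149). Histone genes of one class are near copies of each other, so counts of Hist1h1c, Hist1h2bc, Hist3h2a and Hist2h3c2 may be split with or lost to paralogs, and overlapping or antisense genes are also uncertain because no source used here says whether strand entered the counting.

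Genes that handle histones were described from lists chosen with earlier results of these data known, and none of them held a called gene in any of the 6 comparisons. Of 32 histone chaperones, which carry histones and load them onto DNA, 28 were tested, and their median log2 fold change in AON12.1 against scrambled was 0.04. The smallest p there belonged to Ptma, which encodes an acidic protein that binds H1, at 0.18 ± 0.09 (adjusted p = 0.683). In AON12.1 against YAC128 aCSF it belonged to Nap1l5, a member of the nucleosome assembly family, at -0.57 ± 0.16 (adjusted p = 0.114), and in AON12.1 against WT aCSF to Npm1, nucleophosmin, at -0.39 ± 0.12 (adjusted p = 0.117). Of 12 genes for 3' processing of histone messenger RNA, 9 were tested with a median of 0.02, and Lsm11, a subunit of the particle that cuts at the stem-loop, had the smallest p at -0.36 ± 0.23 (adjusted p = 0.791).

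High mobility group proteins compete with H1 for nucleosomes, and 6 of their 9 listed genes were tested, with a median of -0.10 in AON12.1 against scrambled. Hmgn3, a nucleosome-binding member, had the smallest p there at -0.24 ± 0.11 (adjusted p = 0.639). Heterochromatin and repressor genes, 12 of 14 tested, had a median of 0.07 in that comparison. Targets of p53, 14 of 19 tested, had a median of -0.03, with Plk2, a kinase induced by stress and synaptic activity, at 0.35 ± 0.15 (adjusted p = 0.615). All 5 medians stand beside 0.01 over all genes tested.

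Proliferation genes were at the edge of detection. Of 20 listed, 3 passed the filter (Pcna, Mcm7 and Ccne1), and none of the 3 was called in any comparison. Mki67, a marker of dividing cells, had 9 counts over all 32 libraries and Top2a, which untangles copied chromosomes, 57. Pcna, the sliding clamp of DNA polymerase, stood at 73.6 ± 12.2 CPM with AON12.1 and 65.2 ± 11 CPM with scrambled (0.16 ± 0.11, adjusted p = 0.828).

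Genes whose log2 CPM followed Hist1h1c most closely over the 32 libraries were 1110038B12Rik (r = 0.73), C4b (0.71), Gsn (0.65), Tmem158 (0.64) and Unc5b (0.63). These correlations span groups that differ in Hist1h1c and libraries that share depth, and they are descriptive. C4b, a complement component, stood at 122 CPM with AON12.1 and 53.1 CPM with scrambled. With each group's mean subtracted, the closest were Plcb3 (r = 0.61), Rhoq (0.61), Gm12355 (0.58), Txnip (0.58) and Hsdl2 (0.57), so the 2 sets of 5 shared no gene. Among the listed histone genes the closest to Hist1h1c within groups was Hist1h2bc (r = 0.51, n = 32 libraries), followed by H3f3b (0.45), Hist3h2a (0.39) and H3f3a (0.33), while H1fx and H2afz stood at -0.11 each.

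Marker genes of glia and neurons also differed between the groups in which Hist1h1c differed, and their part in its level was not tested. The fits with marker covariates given below are descriptive. In AON12.1 against scrambled, 3 of 16 oligodendrocyte markers were called higher, where 0.14% of all genes were called. They were Qdpr (log2 fold change 0.48 ± 0.09, adjusted p = 0.00892), Gsn (0.63 ± 0.13, adjusted p = 0.0170) and Trf (0.55 ± 0.12, adjusted p = 0.0309). The oligodendrocyte list as a whole moved little, with 11 of 16 values above 0 and a median log2 fold change of 0.09, beside 0.01 over all genes. None of 12 astrocyte and none of 12 microglia markers was called there, and 6 of 12 values in each list were above 0, with medians of -0.01 and 0.01. The mean of Qdpr was 305 CPM with AON12.1, 218 with scrambled and 343 in WT aCSF. Scrambled against WT aCSF gave -0.65 ± 0.09 for Qdpr (adjusted p = 3.97e-05), which was the 1 oligodendrocyte marker of 16 called in that comparison.

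Against YAC128 aCSF, where 0.309% of all genes were called, 1 of 16 oligodendrocyte (Gsn), 2 of 12 astrocyte (S100b and Gfap) and 1 of 12 microglia markers (Tyrobp) rose with AON12.1. Values above 0 numbered 8 of 16, 6 of 12 and 10 of 12, with medians of 0.03, -0.01 and 0.26, beside 0.00 over all genes. The microglia rise was not particular to AON12.1. In scrambled against YAC128 aCSF, where 0.0843% of all genes were called, 3 of 12 microglia markers were called higher (C1qb, C1qa and Tyrobp). Of the astrocyte and oligodendrocyte markers, 0 of 12 and 0 of 16 were called there. In AON12.1 against WT aCSF, where H1fx was called, Gsn was higher and Mobp, a myelin gene, lower (-0.61 ± 0.12, adjusted p = 0.00783). S100b, Tyrobp and Enpp6, a gene of newly formed oligodendrocytes (1.15 ± 0.19, adjusted p = 0.000886), were also higher. Enpp6 was called higher than in WT aCSF in YAC128 aCSF (1.08 ± 0.19, adjusted p = 0.00632) and scrambled libraries too (1.35 ± 0.19, adjusted p = 3.97e-05). In scrambled against WT aCSF, S100b (0.41 ± 0.09, adjusted p = 0.0498) and C1qa (0.56 ± 0.12, adjusted p = 0.0324) were also called higher. No marker of these lists of 16, 12 and 12 was at 0 in all libraries of a group.

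Striatal projection neurons, the main neurons of the tissue, had markers that stood mostly higher with AON12.1, although none was called in its 3 comparisons. In AON12.1 against scrambled 14 of 15 were above 0, with a median log2 fold change of 0.32 beside 0.01 over all genes, and 7 of 15 had an unadjusted p under 0.05, where 7.25% of all genes had. The smallest p there belonged to Tac1, the gene of substance P, at 0.43 ± 0.14 (adjusted p = 0.447). Against YAC128 aCSF 15 of 15 were above 0, with a median of 0.42 and 10 of 15 under 0.05 (all genes 11.6%), and Tac1 stood at 0.56 ± 0.14 (adjusted p = 0.0742). In scrambled against YAC128 aCSF 13 of 15 were above 0, with a median of 0.14 and 0 of 15 under 0.05 (all genes 9.83%).

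In AON12.1 against WT aCSF 10 of 15 projection neuron markers were above 0, with a median of 0.12, and in scrambled against WT aCSF 2 of 15, with a median of -0.23. In the genotype comparison 1 of 15 was above 0, the median was -0.27, and 2 fell: Adora2a, an adenosine receptor gene (-0.83 ± 0.18, adjusted p = 0.0495), and Penk, the enkephalin precursor gene (-0.76 ± 0.16, adjusted p = 0.0495). Their summed levels ranged from 6599 to 11803 CPM with AON12.1, 3722 to 8488 with scrambled, 3915 to 7710 in YAC128 aCSF and 5755 to 12170 in WT aCSF, so the groups overlapped. Of 8 cortical excitatory neuron markers, 5 were tested and none was called with AON12.1. In AON12.1 against scrambled 0 of 5 were above 0 (median -0.32), with Neurod2, a neuronal transcription factor gene, at -1.18 ± 0.53 (adjusted p = 0.639), and against YAC128 aCSF 4 of 5 were (median 0.21). In scrambled against YAC128 aCSF 5 of 5 were above 0 (median 0.84), and none was called. Scrambled replicate 5 held 1193 CPM of the cortical markers, the highest of all libraries, and its part in these values was not tested.

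Summed oligodendrocyte markers ranged from 6854 to 12240 CPM with AON12.1, 6691 to 8036 with scrambled, 5566 to 7578 in YAC128 aCSF and 7094 to 9331 in WT aCSF. Their highest value came from 1 AON12.1 library, replicate 2, and the other 7 lay at or below 7174 CPM, with a group median of 7064 against 7392 in scrambled. Without that library, Hist1h1c was 1.16 above scrambled on the log2 scale, as it was with it. Summed microglia markers ranged from 923 to 1547, 980 to 1341, 740.5 to 1010 and 831 to 1094 CPM in the same order, and astrocyte markers from 3453 to 4232, 3673 to 4293, 3298 to 3711 and 3717 to 4470 CPM. These ranges overlapped between AON12.1 and scrambled for all 3 lists.

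With the mean oligodendrocyte, microglia or astrocyte marker level as a covariate, Hist1h1c in AON12.1 against scrambled stood at 1.17, 1.18 and 1.18, beside 1.16 without one. Against YAC128 aCSF Hist1h1c stood at 0.92, 0.73 and 0.85, beside 0.92, and against WT aCSF at 0.67, 0.55 and 0.71, beside 0.67. With the microglia covariate the values against YAC128 aCSF and WT aCSF were the lower ones. Microglia, oligodendrocyte and projection neuron markers themselves differed between groups. A fit with a marker covariate therefore cannot separate marker level from the treatment, and no cause was tested. With the share of counts outside features as a covariate, Hist1h1c was 1.18 above scrambled on the log2 scale. With the projection neuron or the cortical neuron marker level as a covariate, Hist1h1c stood at 1.11 and 1.11 above scrambled, 0.84 and 0.96 above YAC128 aCSF, and 0.65 and 0.68 above WT aCSF. H1fx in AON12.1 against WT aCSF stayed called with these 2 neuron covariates (-0.40, adjusted p = 0.00950, and -0.39, adjusted p = 0.00769). The microglia, astrocyte and neuron covariates were added after the data were seen.

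**Figure D4:**
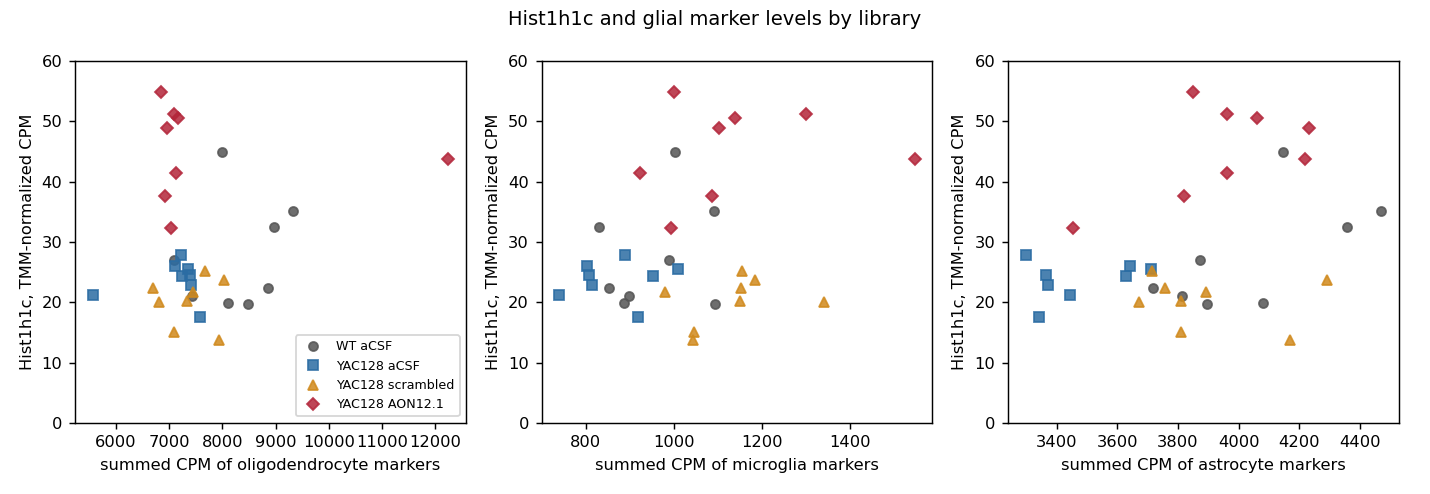
Level of Hist1h1c in TMM-normalized CPM on the vertical axis against the summed CPM of oligodendrocyte, microglia and astrocyte markers on the horizontal axes, 1 point per library, 8 libraries in each of 4 groups. AON12.1 libraries stood at 32.3 CPM of Hist1h1c or higher and scrambled libraries at 25.2 CPM or lower; their marker ranges overlapped, though AON12.1 replicates 2, 4 and 7 each lay outside the scrambled range of at least 1 list. Horizontal axes do not start at 0.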

How the data were processed

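The series holds 32 striatal libraries in 4 groups of 8 mice. Library making began, per the labels' protocols, from 100 ng of RNA primed with oligo-dT that held a well barcode and a unique molecular identifier (modified mcSCRB-seq), so values reflect the 3' ends of polyadenylated RNA and fall with anything that shortens or removes a poly(A) tail. The authors deposited unnormalized whole-number counts for each gene. The submitters' processing notes name HTSeq 0.12.4, STAR 2.7.5a, cutadapt 2.10 and FastQC, and the build GRCm39. Collapsing of identifiers and use of strand are not given in the sources used here.

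From the deposited counts, without the 5 summary lines, genes were filtered with filterByExpr (minimum count 10, total 15) and fitted in R 4.3.3 with edgeR 4.0.16 (TMM, quasi-likelihood, all 32 libraries, 1 coefficient per group). The 6 contrasts were adjusted by Benjamini-Hochberg over 10679 genes, and a call is an adjusted p under 0.05. The common biological coefficient of variation was 0.167. Correlations used log2 CPM with a prior count of 2. Names came from GENCODE M21 (GRCm38), which named 52081 features, and chromosomes are of that build. The fit was tested on simulated data. No pair of libraries was identical. Each group had from 2 to 4 animals numbered in series 18, the rest in series 19 (3 and 5 in WT aCSF, 4 and 4 in YAC128 aCSF, 2 and 6 in scrambled and AON12.1).

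The members and gene lists were chosen with earlier results of these data known. Named were all 10 members and the 6 other tested histone genes. Also named were the called gene or smallest p of each list, and the 5 genes most like Hist1h1c with and without group means. The text gives the lists' called genes and smallest p mainly for the AON12.1 comparisons and leaves out others that this rule takes. A gene that it takes is not reported here. Alternatives were DESeq2 1.42.0 and limma 3.58.1 voom, RLE scaling, other filters, 2-group fits, covariates, subsets of libraries and leaving out each library.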

Additional observations from a re-analysis of the deposited data

Results flagged for a closer look

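Within each group of 8 libraries, the level of each listed gene was examined for a library far from the others, and 3 of 40 sets of gene and group held one, where chance flags about 1 in 20. H3f3a in WT aCSF replicate 3 stood at 386.3 CPM, from 315 counts, with the nearest library at 207.9 CPM and 17% of that library's counts outside features. Without it, H3f3a gave a log2 fold change of 0.46 in AON12.1 against WT aCSF (adjusted p = 0.146) and 0.28 in YAC128 aCSF against WT aCSF (adjusted p = 0.524).

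H3f3a in scrambled replicate 3 stood at 283 CPM, with the nearest library at 202.9 CPM and 26.8% of counts outside features, and without it AON12.1 against scrambled gave 0.33 (adjusted p = 0.685). H2afy in scrambled replicate 5 was low at 121.2 CPM, from 97 counts, with the nearest library at 143.4 CPM, and without it AON12.1 against scrambled gave -0.09 (adjusted p = 0.953). No listed gene entered or left the set of calls when these libraries were left out.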

How the results depend on the processing

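Under other settings 735 values were examined, and 724 kept their direction and side of the threshold or stayed within the spread. They were the counts of listed genes called in each comparison and the log2 fold changes of Hist1h1c and H1fx. Other listed genes entered only in comparisons where their unadjusted p was under 0.05. A fold change without an adjusted p was scored as kept if its sign held. The number of listed genes called in YAC128 aCSF against WT aCSF was 0, with a leave-one-out range of 0 to 1, where the 1 was H1fx without WT aCSF replicate 1. In AON12.1 against WT aCSF it was 1 (H1fx, in all 16 fits that left out a library, with log2 fold changes from -0.42 to -0.34 and a highest adjusted p of 0.0446). It was 0 with only these 2 groups fitted, 0 among libraries with up to 25% of counts outside features, 0 in series 18 and 0 in series 19. All 4 of these fits used fewer libraries. Hist1h1c in scrambled against YAC128 aCSF turned from -0.25 to 0.13 in series 18, which holds 2 and 4 of their libraries, and the cause was not tested. Hist1h1c in AON12.1 against scrambled ranged from 0.97 to 1.24 over 16 settings and from 1.08 to 1.23 when a library was left out. Of 60 values of gene and comparison, 29 kept their sign under every setting and 31 did not, and among the latter the largest was 0.263 on the log2 scale. Depth limits Hist1h1c and Hist3h2a most, with as few as 12 counts per library. No paired analysis was possible because the labels give animal numbers and no replicate numbers shared between groups.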
